A study of Mus musculus with 16 samples.

Results

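Myofibroblastic fibroblasts of mouse mammary tumors are described here, as 190 cell barcodes of 4798 that passed the depth and mitochondrial limits in 8 Drop-seq libraries. A barcode stood for 1 cell and a unique molecular identifier (UMI) for 1 captured transcript. The members were chosen from raw UMI counts. They had 450 to 4000 genes and less than 20% mitochondrially encoded UMIs. They had at least 10 UMIs of Col1a2 and Col3a1 together, no UMI of the pericyte gene Rgs5, and fewer than 2 UMIs of the endothelial genes Cdh5, Emcn and Pecam1. They also had at least 2 UMIs of Acta2, Tagln, Tnc and Lrrc15 together, and at most 1 UMI of the inflammatory or progenitor genes Clec3b, Pi16, Ly6c1, C3, Efemp1 and Penk. Of the members, 85 came from WB1P tumors and 105 from WB1P-Myc tumors.

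The study asked how fibroblasts of the normal mammary gland become the fibroblasts of tumors, and these libraries profiled whole end-stage tumors of the triple-negative type. Both models were untreated and shared the genotype WapCre;Brca1F/F;Trp53F/F. The Wap promoter drives Cre in mammary epithelium, so the deletions are directed at tumor cells and not at fibroblasts. WB1P-Myc mice carried in addition a Myc allele. Live single cells of each model were run as 1 suspension, collected as 4 droplet fractions, so n is 1 suspension per model, the fractions are technical, and no test between models was possible. The tables do not tell the mice of a suspension apart, and the labels state no age. The model, the mice pooled for it, the suspension and the depth cannot be told apart.

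Myofibroblasts are fibroblasts that build contractile bundles of smooth muscle actin and lay down a stiff collagen matrix, and they are known for wound closure and scar formation. In tumors they are often set against inflammatory fibroblasts, which release cytokines and complement proteins. Pericytes wrap capillaries and share the contractile genes, and this is why Rgs5, a regulator of G protein signaling that marks them, was used to leave them out.

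The 8 tables held 256985 to 4960334 UMIs over 1000 barcodes each. WB1P fraction 1 was far shallower than the rest and gave 65 usable barcodes and 1 member, so ranges over fractions below use the 7 libraries with at least 10 members. The members had a median of 2745 UMIs in WB1P and 4197 in WB1P-Myc, and the whole class gave 266419 and 503077 UMIs. In the epithelial cells of WB1P-Myc (Epcam, Krt8, Krt18 and Krt19 together at least 3 UMIs) Myc stood at 192 UMIs of each 1000000 in all (CPM), against 63.7 CPM for WB1P. The members had 95.4 CPM of Myc in WB1P-Myc, and 67.6 CPM without the allele. Brca1 had 0 and 1 UMI in the members of WB1P and WB1P-Myc and 6.61 and 11.3 CPM in their epithelial cells. Trp53, the other floxed gene, stood at 33.8 CPM in the members of either model and at 6.61 and 13.7 CPM in the epithelial cells. For both genes 3' tags do not show whether the floxed exons were lost. In all, 3 barcodes were listed by 2 of these libraries and none of them was a member. MiSeq tables of the same fractions held almost entirely other barcodes (2 of the 190 members recurred in the MiSeq table of their own fraction), and their 51 barcodes that met the same limits are set beside the members below. Whether the MiSeq barcodes are separate cells or another selection from the same droplets is not known, so their values may not be independent of the members.

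The genes of the rule are given as a description. Acta2, smooth muscle actin, was detected in 64 of 85 WB1P members and 77 of 105 WB1P-Myc members, with at most 33 UMIs in a cell. Tagln, an actin-binding protein of contractile cells, was detected in 51 and 69 members. Tnc, the matrix protein tenascin C, was detected in 69 and 83 members, and Lrrc15, a membrane protein known from TGF-beta-exposed fibroblasts, in 53 and 62. All 4 genes were seen together in 63 members, 3 in 47, 2 in 55 and 1 in 25. The sum of the 4 genes had a median of 11 UMIs in WB1P and 10 in WB1P-Myc, with 87 members at 12 or more. At the threshold, 21 members had a sum of 2 and 24 a sum of 3, while 24 barcodes with a sum of 1 and 44 with none fell just outside. On the inflammatory side 33 members had 1 UMI, and 19 barcodes with 2 were left out. In 9 members the collagen sum was 10 to 12 UMIs, and 12 barcodes at 7 to 9 UMIs met every other limit. Rgs5 at 1 UMI kept 5 barcodes out, and 5 WB1P-Myc barcodes with more than 4000 genes met every limit but that one.

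Collagen-rich barcodes without endothelial genes numbered 195 in WB1P and 313 in WB1P-Myc. The members made up 43.6% of them in WB1P (95% Clopper-Pearson interval 36.5 to 50.9) and 33.5% in WB1P-Myc (28.3 to 39.1). These intervals, and all others given here, cover counting error only. Over the 3 WB1P fractions with members enough the share was 43.3% ± 5.13 (SD), from 38.3% to 48.6%. Over the 4 WB1P-Myc fractions it was 33.6% ± 6.76 (SD), from 26.0% to 40.5%, and the fractions of the models overlapped. Of all usable barcodes the members made up 6.50% in WB1P and 3.01% in WB1P-Myc. The other collagen-rich barcodes included 53 WB1P and 85 WB1P-Myc inflammatory or progenitor-like cells (at least 2 UMIs of the inflammatory genes and at most 1 of the myofibroblast genes) and 31 Rgs5-high cells (at least 2 UMIs of Rgs5). Another 76 barcodes passed both sums, and 68 passed neither.

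**Figure D1:**
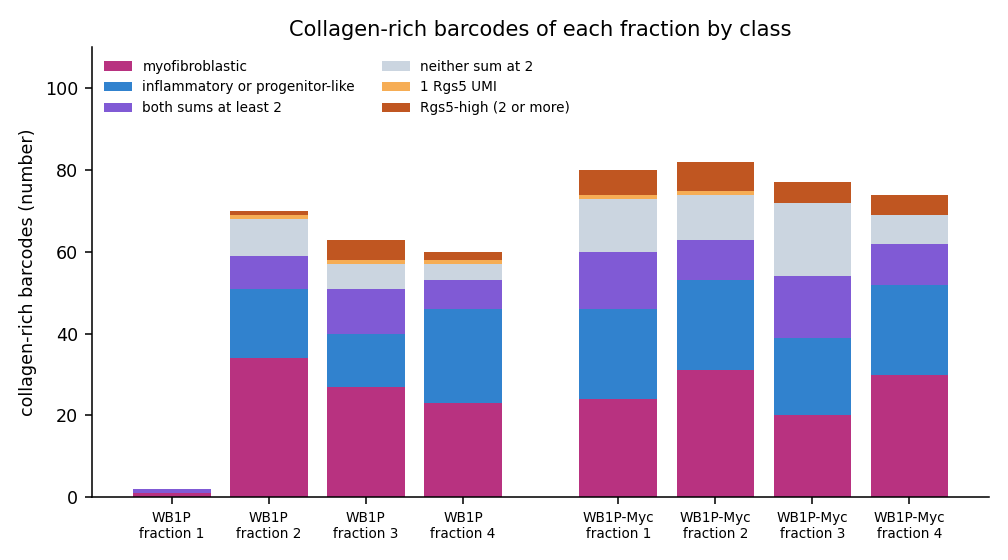
Number of collagen-rich barcodes in each of the 8 droplet fractions (bars), stacked by class. Myofibroblastic fibroblasts are the lowest block, from 20 to 34 barcodes in every fraction but WB1P fraction 1, which holds 1.

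The members were first set beside the inflammatory or progenitor-like cells, to show which genes outside the rule went with the split. UMIs were summed over the cells of a class and given as CPM, and a gene is called past 2-fold when it had at least 20 UMIs in both classes together and differed at least 2-fold in the same direction in both models. Of 6623 genes, 255 (3.85%) were past 2-fold higher in the members and 315 (4.76%) were past 2-fold lower, and the median log2 ratio over all genes was 0.14. TMM or DESeq2 size factors, which set the typical gene to no change, moved the WB1P ratios by -0.22 on the log2 scale and the WB1P-Myc ratios by -0.11 and -0.13. They gave 186 higher and 406 lower genes (TMM) and 183 and 408 (DESeq2). Both classes were cut from the same cells by the rule, so these are descriptions, with no test.

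The contractile apparatus went with Acta2 and Tagln. Of 19 measured genes of that list, 7 were past 2-fold higher in the members (Actn1, Cald1, Cnn2, Myl9, Tpm1, Tpm2 and Vcl), none was past 2-fold lower, and the median log2 ratio was 1.41. The same 7 were called under TMM and DESeq2 scaling, and 6 of them with any 1 fraction left out, while Vcl lost its call without WB1P-Myc fraction 2. Here and below a call was lost when either model fell short of 2-fold or the gene of 20 UMIs, so the pooled ratio of such a gene may have changed little. Tpm2, a tropomyosin that lies along actin filaments, stood at 1194, 517 and 814 CPM in WB1P fractions 2 to 4 and at 685, 542, 693 and 559 CPM in WB1P-Myc fractions 1 to 4. The inflammatory or progenitor-like cells had 69.6 CPM in WB1P and 52.4 CPM in WB1P-Myc, below every fraction of members. The log2 ratio of Tpm2 was 3.64 in WB1P (95% interval 2.64 to 4.87) and 3.53 in WB1P-Myc (2.76 to 4.42). Tpm2 was detected in 65.9% and 73.3% of members, and in 1.22% and 2.41% of macrophages (C1qa, C1qb and C1qc together at least 5 UMIs), which should lack it and had medians of 1751.5 and 1835 UMIs. After every cell was thinned to 1000 UMIs the shares in members were 48.8% and 40.8%, against 8.33% and 5.00% in the inflammatory or progenitor-like cells. The thinning left out 3 and 2 members below that depth.

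Myl9, the regulatory light chain of non-muscle and smooth muscle myosin, stood at 401, 121 and 317 CPM in the WB1P fractions and at 139, 224, 285 and 230 CPM in the WB1P-Myc fractions. In the other fibroblast class it stood at 26.1 and 15 CPM, again below every fraction of members. Its log2 ratio was 3.45 in WB1P (1.85 to 5.76) and 3.84 in WB1P-Myc (2.44 to 5.74). Cnn2, a calponin, had log2 ratios of 2.71 and 2.09, Tpm1 of 2.45 and 1.30, and Vcl, the adhesion protein vinculin, of 2.49 and 1.33. Among smooth muscle genes Actg2, enteric actin, was seen in 15 members of each model, at 233 CPM in WB1P and 93.4 CPM in WB1P-Myc, and had no UMI in the inflammatory or progenitor-like cells. Counted against 3 UMIs for the class at 0, its log2 ratio was at least 3.16 in WB1P and at least 3.06 in WB1P-Myc.

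Because serum response factor, the known regulator of actin genes, binds the CArG box, the 250 bases before the RefSeq start of each gene of the contractile list and of Acta2 and Tagln were searched for it on both strands. A match was found for 4 of the 20 of these 22 genes that were in the table (Cnn2, Myl6, Myl9 and Vcl), and for 1.62% of all 27025 promoters. The promoters of 3 genes past 2-fold higher are shown 5′ to 3′ on the gene's strand, with the CArG box in capitals (RefSeq, GRCm38.p6, plus strand for all 3), since they carry the match beside the measured difference. They are Myl9 at chr2:156775214-156775463, Vcl at chr14:20929148-20929397 and Cnn2 at chr10:79988350-79988599. The boxes began 161, 227 and 56 bases before the start.
Myl9: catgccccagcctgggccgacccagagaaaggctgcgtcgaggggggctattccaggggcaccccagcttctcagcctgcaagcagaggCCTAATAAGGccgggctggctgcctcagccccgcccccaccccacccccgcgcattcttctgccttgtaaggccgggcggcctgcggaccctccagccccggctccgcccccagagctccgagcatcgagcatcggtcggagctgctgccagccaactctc
Vcl: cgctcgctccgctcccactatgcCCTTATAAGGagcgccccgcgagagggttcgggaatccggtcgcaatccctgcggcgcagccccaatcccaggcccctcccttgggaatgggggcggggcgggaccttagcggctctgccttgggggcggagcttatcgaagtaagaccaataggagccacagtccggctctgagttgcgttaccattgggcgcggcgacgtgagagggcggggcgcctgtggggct
Cnn2: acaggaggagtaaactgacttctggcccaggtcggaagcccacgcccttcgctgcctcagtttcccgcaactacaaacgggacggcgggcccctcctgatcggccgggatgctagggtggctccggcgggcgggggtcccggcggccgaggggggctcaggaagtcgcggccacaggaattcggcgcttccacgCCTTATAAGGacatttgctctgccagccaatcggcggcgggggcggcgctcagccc
A match is a description of these letters, and binding was not measured.

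The matrix genes split by kind. Of 20 stromal collagens, Col7a1, Col8a1, Col8a2, Col11a1 and Col12a1 were past 2-fold higher in the members, Col14a1 was past 2-fold lower, and the median log2 ratio was 0.64. Col8a2 lost its call without WB1P fraction 3. Col12a1, a collagen that bridges fibrils, stood at 1575, 1783 and 2263 CPM in the WB1P fractions and 1027, 1139, 1968 and 1237 CPM in the WB1P-Myc fractions, against 356 and 382 CPM in the other class. Its log2 ratios were 2.36 (1.90 to 2.86) and 1.74 (1.43 to 2.05). Col8a1, a short-chain collagen of vessel walls and scars, stood at 2245 and 1706 CPM in the members of the models and at 878 and 247 CPM in the other class. Col11a1, a fibril-forming minor collagen, had log2 ratios of 1.56 and 2.80, and its pooled log2 ratio of 2.41 became 3.04 without WB1P-Myc fraction 3. Col14a1, which sits on the surface of fibrils, went the other way, at 233 and 111 CPM in members against 1017 and 719 CPM. Col1a1, the main chain of type I collagen, had log2 ratios of 0.17 and 0.23, and Postn, periostin, of 0.15 and 0.18. In WB1P these ratios were smaller than the shift between scalings, and both changed sign under TMM or DESeq2 scaling.

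Of 25 matricellular and fibril-associated genes, 3 were past 2-fold higher (Ctgf, Spon1 and Wisp1) and 5 past 2-fold lower (Dcn, Eln, Ltbp1, Spon2 and Wisp2), with a median of 0.05 that turns to -0.08 under TMM or DESeq2 scaling. Eln and Wisp2 lost their calls without WB1P-Myc fraction 1 or 4. Ctgf, a growth-factor-like matrix protein, stood at 642 and 509 CPM in the members and 130 and 97.3 CPM in the other class. Wisp1, of the same family, stood at 300 and 205 CPM against 26.1 and 44.9 CPM. Dcn, decorin, a proteoglycan that coats collagen, was lower in every fraction of members: 1360, 1013 and 1021 CPM in WB1P and 554, 976, 755 and 546 CPM in WB1P-Myc, against 7999 and 6125 CPM. Its log2 ratios were -2.80 (-2.99 to -2.61) and -3.11 (-3.28 to -2.95). Among 18 collagen-processing enzymes only Loxl3, a lysyl oxidase that cross-links collagen, was past 2-fold, at 357 and 189 CPM in members against 34.8 and 59.9 CPM. That share, 5.56% higher, was near the 3.85% of all genes.

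TGF-beta is the textbook inducer of myofibroblasts, and activins belong to the same family. Of 16 measured genes of these pathways 6 were past 2-fold higher (Fstl3, Inhba, Nrep, Tgfb1, Tgfb2 and Tgfb3), 3 past 2-fold lower (Ltbp3, Tgfbr2 and Tgfbr3), and the median log2 ratio was 0.34. Ligand genes were among the higher and receptor genes among the lower. Of the 6 and 3 genes, 2 (Inhba and Nrep) and 2 (Tgfbr2 and Tgfbr3) kept their calls with any 1 fraction left out. Fstl3 and Ltbp3 lost theirs without WB1P fraction 2, and Tgfb2 without WB1P fraction 4. Under DESeq2 scaling Fstl3, Inhba and Nrep were still past 2-fold higher, and under TMM scaling Tgfb3 too. Inhba, the activin A subunit, stood at 988, 1915 and 1683 CPM in the WB1P fractions and 293, 461, 842 and 217 CPM in the WB1P-Myc fractions. The other class had 26.1 and 63.7 CPM, below every fraction of members. The log2 ratio of Inhba was 5.84 in WB1P (4.28 to 8.12) and 2.68 in WB1P-Myc (1.96 to 3.49), and the pooled 3.90 became 5.65 without WB1P-Myc fraction 2. The ligand Tgfb3 stood at 120 and 113 CPM against 17.4 and 52.4 CPM, but was no longer past 2-fold in both models without WB1P-Myc fraction 1 (pooled log2 1.27) or 3 (1.20), and without fraction 2 it was 2.08 in place of 1.47. Tgfb1 rested on 30 UMIs and lost its call without WB1P fraction 3 (0.97) or 4 (0.89) or WB1P-Myc fraction 3 (0.98), and without WB1P fraction 2 it was 2.28 in place of 1.31. The receptor Tgfbr2 stood at 139 and 115 CPM in members against 435 and 363 CPM, and the co-receptor Tgfbr3 at 48.8 and 37.8 CPM against 252 and 228 CPM.

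Proteases, Wnt genes and secreted proteins were next examined. Spp1, the secreted phosphoprotein osteopontin, had log2 ratios of 5.62 (5.02 to 6.30) and 3.69 (3.09 to 4.36). Serpine2, an inhibitor of thrombin and plasminogen activators, had 3.32 and 2.49. Of 20 proteases and inhibitors, Mmp10 and Timp1 were past 2-fold higher and Adamts5, Mmp2 and Timp2 lower. For Mmp10, a matrix metalloproteinase, the pooled log2 ratio was 6.88, with 231 UMIs in WB1P members against none in the other class, but in WB1P-Myc it rested on 7 UMIs of 1 member against 1 UMI. Its call was lost without WB1P-Myc fraction 2 (5.22) or 3 (6.71), and without WB1P fraction 4 the ratio was 5.86. Timp1, an inhibitor of matrix metalloproteinases, stood at 2350 and 1483 CPM in members against 539 and 588 CPM. Unc5b, a netrin receptor, was seen in 22 members of each model and had 105 and 61.6 CPM, against 0 and 3.74 CPM. WB1P-Myc fraction 3 stood apart from the others at 111 CPM, and the pooled log2 ratio of Unc5b, 4.87, became 3.13 without WB1P-Myc fraction 1. Of 9 Wnt and hedgehog genes, Lgr5, Wnt11 and Wnt5a were past 2-fold higher and none lower. Wnt5a, a non-canonical Wnt ligand, stood at 139 and 69.6 CPM against 52.2 and 7.49 CPM, and its pooled log2 ratio of 2.16 was 3.41 without WB1P fraction 2, while its call was lost without WB1P fraction 3 (1.86) or 4 (2.08). None of the 3 was called with every 1 fraction left out in turn: Lgr5 lost its call without WB1P fraction 2 or 4 or WB1P-Myc fraction 2, and Wnt11 when any of 6 single fractions left it fewer than 20 UMIs (log2 ratio 1.03 to 2.93, in place of 1.49). Runx2, a transcription factor of bone and cartilage, was the only one of 20 mesenchymal factors past 2-fold higher (60.1 and 71.6 CPM against 17.4 and 11.2 CPM), and Osr1 the only one lower. Both lost their calls when 1 fraction was left out, Runx2 without WB1P fraction 2 and Osr1 without WB1P fraction 4. The list's shares of 5% higher and 5% lower were near those of all genes, 3.85% and 4.76%.

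The lower genes included those of the inflammatory or progenitor side, which the rule used in part. Of 29 measured genes of that list outside the rule, 17 were past 2-fold lower and none higher, with a median log2 ratio of -1.47. With any 1 fraction left out 14 of the 17 were called, while Ccl7 lost its call without WB1P-Myc fraction 1 or 4, Ccl8 without WB1P fraction 3 or WB1P-Myc fraction 4, and Sfrp2 without WB1P-Myc fraction 1. Dpt, dermatopontin, a matrix protein of resting fibroblasts, stood at 71.3 and 103 CPM in the members against 2217 and 1355 CPM. Ly6a, the stem cell antigen Sca-1, stood at 101 and 111 CPM against 1643 and 1715 CPM. Dpp4, the peptidase CD26 that the study used to divide normal fibroblasts, stood at 3.75 and 9.94 CPM (1 and 4 members) against 113 and 41.2 CPM. Cd34 stood at 15 and 15.9 CPM against 330 and 258 CPM, and its pooled log2 ratio of -4.17 was -4.84 without WB1P-Myc fraction 2. Among the cytokines, Cxcl12 (pooled log2 ratio -2.74) and Il6 were of the 17 past 2-fold lower. Not every cytokine followed. Cxcl1, which attracts neutrophils, stood at 1220 and 1028 CPM in the members (log2 ratio -1.05 and -0.65), and Ccl2, which attracts monocytes, at 942 and 626 CPM (-0.57 and -0.85). Cxcl14, a chemokine of epithelia and stroma, was not past 2-fold either (0.29 and -0.92).

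**Figure D2:**
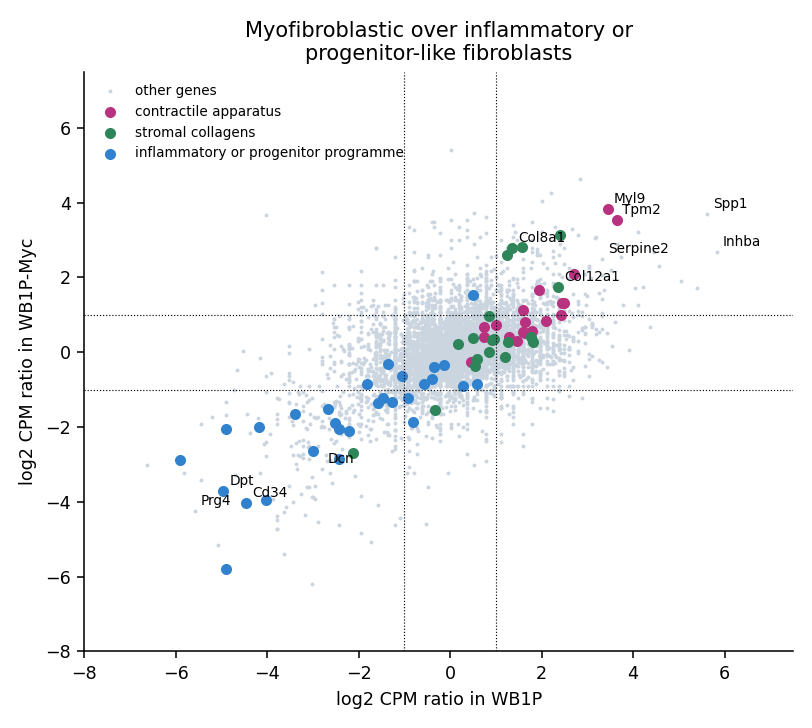
Log2 ratio of CPM, myofibroblastic over inflammatory or progenitor-like fibroblasts, in WB1P (horizontal) and WB1P-Myc (vertical), for each gene with at least 20 UMIs outside the rule. Dotted lines mark 2-fold. Contractile genes lie to the upper right or near 0 and the inflammatory or progenitor programme mostly to the lower left, with a median of -1.47. Genes with no UMI in a class are drawn against 3 UMIs.

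In the MiSeq tables, 51 of 124 collagen-rich barcodes met the rule (32 WB1P and 19 WB1P-Myc). Of the 255 genes past 2-fold higher, 101 had UMIs enough there, and 97 of these (96.0%) were higher in the MiSeq members, against 54.7% of all 2479 genes measured. Of the 315 lower genes, 122 of 136 (89.7%) were lower, against 45.3% of all genes. Tpm2 stood at 1158 and 1097 CPM in those members and 67.8 and 34.2 CPM in the other class, and Inhba at 1121 and 740 CPM against no UMI.

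The members were next set beside the Rgs5-high cells, to see how far a class without Rgs5 was free of other pericyte genes. Of 5595 genes 67 (1.20%) were past 2-fold higher in the members and 183 (3.27%) past 2-fold lower. The comparison rests on 8 Rgs5-high cells in WB1P and 23 in WB1P-Myc, and without WB1P fraction 3, which held 5 of the 8, the count of higher genes was 14. Of 8 measured pericyte genes outside the rule 5 were past 2-fold lower in the members (Abcc9, Heyl, Higd1b, Notch3 and Rgs4) and none higher. Of these 5, 2 (Higd1b and Rgs4) were called with any 1 fraction left out, while Abcc9 lost its call without WB1P fraction 2, 3 or 4 or WB1P-Myc fraction 2 or 4, with log2 ratios of -5.90 to -4.36 in place of -5.87. Notch3, a receptor of mural cells, had exactly 20 UMIs, so leaving out any of 7 fractions took it below the minimum, while its log2 ratio of -3.13 stayed between -3.44 and -2.96. Higd1b, a hypoxia-inducible protein of pericytes, was near absent, with 1 UMI in 190 members against 535 and 563 CPM in the Rgs5-high cells. Abcc9 and Kcnj8, the subunits of the pericyte potassium channel, had 3 and 2 UMIs in the members. Myh11, smooth muscle myosin, stood at 15 and 7.95 CPM against 642 and 433 CPM, and its pooled log2 ratio of -5.52 was -6.16 without WB1P-Myc fraction 3. Higd1b had a pooled log2 ratio of -8.74, which was -7.00 without WB1P fraction 3. Heyl, a Notch target, stood at 22.5 and 29.8 CPM and lost its call without WB1P fraction 2 (-1.67) or 4 (-1.41).

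The members were not free of pericyte genes. Cspg4, the proteoglycan NG2, was detected in 23 WB1P members and 25 WB1P-Myc members, at 88.1 to 147 CPM in the WB1P fractions and 89.6 to 158 CPM in the WB1P-Myc fractions. It had 161 and 462 CPM in the Rgs5-high cells and 0 and 18.7 CPM in the inflammatory or progenitor-like cells. Mcam, the adhesion molecule CD146, stood at 120 and 71.6 CPM in members, 107 and 202 CPM in Rgs5-high cells, and 0 and 3.74 CPM in the other fibroblasts. Of 5 measured pericyte genes these 2 were past 2-fold higher in members than in the inflammatory or progenitor-like cells, and Steap4, a metalloreductase, was past 2-fold lower, at 7.51 and 1.99 CPM against 60.9 and 146 CPM. The pooled log2 ratios of Cspg4 and Mcam were 3.22 and 5.08, and without WB1P-Myc fraction 3 they were 4.25 and 3.23. Flt1, a VEGF receptor of the endothelial list, stood at 116 and 65.6 CPM in members and 696 and 606 CPM in Rgs5-high cells. Against the inflammatory or progenitor-like cells it was past 2-fold higher in members (pooled log2 ratio 4.99), also with any 1 fraction left out. Pdgfrb, the receptor that recruits pericytes, stood at 191 and 135 CPM in members, 321 and 404 CPM in Rgs5-high cells and 69.6 and 37.4 CPM in the other fibroblasts. Its relative Pdgfra, a fibroblast marker, stood at 191 and 137 CPM in members and 0 and 14.4 CPM in Rgs5-high cells. Over the whole list of 14 genes, 20 of 85 and 36 of 105 members (23.5% and 34.3%) had at least 2 UMIs. The shares were 5.66% and 17.6% in the inflammatory or progenitor-like cells and 100% and 87.0% in the Rgs5-high cells. The summed level was 297 to 400 CPM over WB1P fractions and 244 to 433 CPM over WB1P-Myc fractions, with 4 and 3 of the 14 genes at 0. Macrophages had 2.03% and 1.81%. After thinning to 1000 UMIs the shares were 8.54% and 12.6% in members, 0% and 3.75% in the other fibroblasts and 85.7% and 69.6% in Rgs5-high cells. The words without pericyte genes therefore hold for Rgs5, which the rule set, and for Higd1b, Abcc9 and Kcnj8, but not for Cspg4 and Mcam. Rgs4, a relative of Rgs5, was lower than in the Rgs5-high cells but present, at 41.6 CPM against 409 CPM and 5.23 CPM in the inflammatory or progenitor-like cells, over both models.

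Contractile genes were present in both classes at different levels. Of 19 measured contractile genes 4 were past 2-fold lower in the members (Cald1, Csrp1, Myl9 and Mylk) and none higher, and the median log2 ratio was -0.67, beside 0.04 over all genes. Mylk, myosin light chain kinase, stood at 63.8 and 19.9 CPM in members and 1605 and 462 CPM in Rgs5-high cells (log2 ratio -4.65 and -4.54). Myl9 stood at 1391 and 534 CPM in the Rgs5-high cells (-2.29 and -1.32). Cald1, an actin regulator, had a pooled log2 ratio of -1.01 and fell short of 2-fold without WB1P-Myc fraction 1 (-0.85) or 2 (-0.93).

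Some matrix genes stood higher in the members than in the Rgs5-high cells. Of 22 matricellular and fibril-associated genes 7 were past 2-fold higher (Cthrc1, Dcn, Fbln2, Lum, Mfap5, Spon1 and Thbs2) and none lower. Without WB1P fraction 3 Cthrc1, Lum and Spon1 lost their calls, and the other 4 of the 7 kept theirs with any 1 fraction left out. Cthrc1, a secreted collagen-associated protein, had a pooled log2 ratio of 4.19, which was 4.91 without WB1P fraction 3, 3.56 without WB1P-Myc fraction 2 and 4.95 without WB1P-Myc fraction 3. Thbs2, thrombospondin 2, stood at 1419 and 807 CPM in members against 107 and 274 CPM, with WB1P-Myc fraction 3 apart from the others at 1559 CPM. Dcn stood at 1149 and 708 CPM against 53.5 and 0 CPM, and its pooled log2 ratio of 6.24 was 4.50 without WB1P fraction 2. Lum, the related proteoglycan lumican, stood at 754 and 312 CPM against 0 and 14.4 CPM. Its pooled log2 ratio of 5.35 was 3.35 without WB1P-Myc fraction 2 and 4.98 without WB1P fraction 3. Col12a1 had log2 ratios of 2.29 (1.24 to 3.61) and 1.61 (1.07 to 2.20). Of 20 stromal collagens, Col7a1, Col11a1 and Col12a1 were past 2-fold higher and Col18a1 and Col4a2 past 2-fold lower, with a median of 0.62. Of the 3 higher, Col12a1 alone was called with any 1 fraction left out. Col11a1 (2.06) lost its call without WB1P fraction 2, 3 or 4 and was 4.85 without WB1P-Myc fraction 2, and Col7a1 (3.31) lost its call without WB1P fraction 3 (1.43) or any 1 of the WB1P-Myc fractions. Col18a1 stood at 41.3 and 17.9 CPM against 428 and 404 CPM. Of 18 collagen-processing enzymes only Lox, a lysyl oxidase, was past 2-fold higher (1.56), and it lost its call without WB1P fraction 3 (1.48) and was 2.48 without WB1P-Myc fraction 2.

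**Figure D3:**
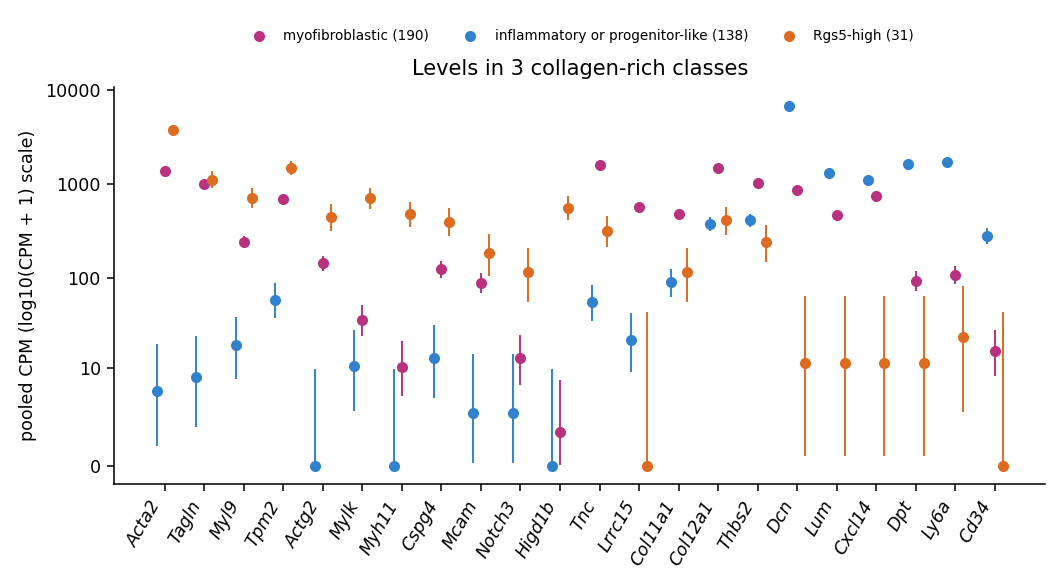
Pooled CPM with 95% Poisson intervals (points and lines, log10(CPM + 1) scale) of 22 genes in the 3 classes, both models together. Acta2, Tagln, Tnc and Lrrc15 were used by the rule. The members lie between the other classes for Myl9, Tpm2, Cspg4 and Mylk, and above both for Col11a1, Col12a1 and Thbs2.

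The members were not uniform. By the rule's own genes, 23 had Acta2 or Tagln without Tnc or Lrrc15, 33 had Tnc or Lrrc15 without Acta2 or Tagln, and 134 were mixed. The first kind made up 9.41% of WB1P members and 14.3% of WB1P-Myc members, and the second 20% and 15.2%. The median depth was 2299 and 3366 UMIs in the first kind, 2730 and 2310 UMIs in the second, and 3030 and 4582 UMIs in the mixed members. Most of the 33 members and many of the 23 had a marker sum of only 2 or 3 UMIs. At such sums a lack of the other pair cannot be told from missed capture, and whether the kinds are distinct cells was not tested.

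**Figure D4:**
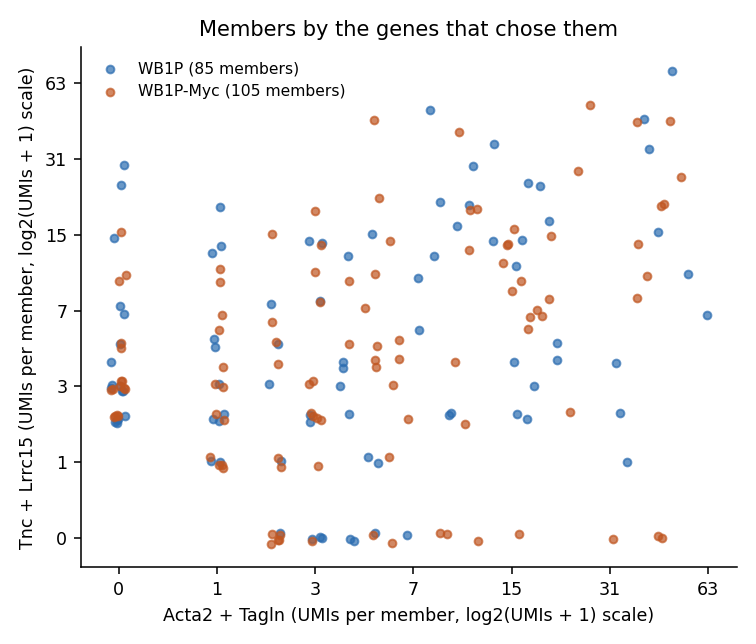
UMIs of Acta2 plus Tagln (horizontal) and of Tnc plus Lrrc15 (vertical) in each of the 190 members, on a log2(UMIs + 1) scale with small random shifts, colored by model. Both models spread over the whole range, and members lie on both axes.

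Of 1635 genes with at least 20 UMIs in the 2 single kinds together, 41 (2.51%) were at least 2-fold higher in the Acta2 or Tagln kind in both models, and 38 (2.32%) were at least 2-fold higher in the Tnc or Lrrc15 kind. Contractile genes stood with Acta2 and Tagln: of 13 measured, 4 were higher in that kind (Cnn2, Palld, Tpm1 and Tpm2), none was lower, and the median log2 ratio was 1.16. Tpm2 stood at 743 and 721 CPM against 95.5 and 63.7 CPM in the Tnc or Lrrc15 kind, and Cnn2 at 457 and 688 CPM against 95.5 and 95.6 CPM. Mcam was the pericyte gene past 2-fold, at 229 and 268 CPM against 0 and 63.7 CPM, on 20 UMIs of 9 members in the Acta2 or Tagln kind. In WB1P that kind held only 8 members and 17491 UMIs, so its CPM values there rest on few UMIs. Igfbp2, a carrier of insulin-like growth factors, was also higher (752 CPM against 139 CPM over both models), with 48.3% of its UMIs in that kind from 1 member. Of 16 stromal collagens none was past 2-fold in either direction in both models. In WB1P-Myc alone Col10a1, a collagen of cartilage, had 273 UMIs in the Acta2 or Tagln kind and 4 in the Tnc or Lrrc15 kind (4581 and 63.7 CPM). The 273 UMIs came from 6 of the 23 members of that kind, and 1 of these held 71.8% of them.

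In the Tnc or Lrrc15 kind, 5 of 19 inflammatory or progenitor genes were at least 2-fold higher (Ccl7, Cxcl12, Cxcl2, Sfrp1 and Sfrp2), as were 3 of 12 proteases (Mmp19, Mmp23 and Mmp3). Ccl7, a monocyte chemokine, stood at 935 and 828 CPM against 114 and 16.8 CPM, from 15 of the 33 members. Spp1 stood at 22603 and 1943 CPM against 4802 and 419 CPM. Cpxm1, a secreted carboxypeptidase-like protein, stood at 2424 and 764 CPM against 743 and 168 CPM, from 27 of the 33 members. For Sfrp2, a secreted Wnt antagonist, 71.8% of the UMIs in that kind came from 1 member, and for Mmp3 58.4%.

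The last comparison set the WB1P-Myc members beside the WB1P members, to show how these cells differed between tumors with and without the Myc allele. Of 5208 genes with at least 20 UMIs, 662 (12.7%) had at least 2-fold higher CPM in WB1P-Myc and 284 (5.45%) at least 2-fold lower. For 807 genes (15.5%) every fraction of 1 model lay above every fraction of the other. The median log2 ratio was 0.08. TMM scaling gave 600 higher and 322 lower genes, and DESeq2 scaling 545 and 395. With 1 suspension per model these are values without a replicate check.

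Among matrix proteases, Mmp13, Mmp10 and Mmp3 stood furthest below WB1P in WB1P-Myc. Of 20 proteases and inhibitors none was past 2-fold higher in WB1P-Myc and 9 were past 2-fold lower (Adamts5, Fap, Mmp10, Mmp13, Mmp14, Mmp19, Mmp3, Mmp9 and Plau), with a median of -0.81. Of the 9, 4 were called with any 1 fraction left out (Mmp10, Mmp13, Mmp3 and Plau). Fap (-1.17) lost its call without WB1P fraction 3 (-0.70) or WB1P-Myc fraction 2 (-0.97) or 4 (-0.95), and in the MiSeq members it was higher in WB1P-Myc, at 255 CPM against 110 CPM. Mmp14, at the limit of 2-fold, lost its call without WB1P fraction 3 (-0.96) or WB1P-Myc fraction 4 (-0.80), and Mmp19 without WB1P-Myc fraction 4 (-0.90). Adamts5 lost its call without WB1P fraction 4 (-0.48). Mmp9 lost its call without WB1P-Myc fraction 2 (-0.96) and stood higher in WB1P-Myc without WB1P fraction 2 (0.50, on 16 UMIs). Mmp13, the collagenase that cuts fibrillar collagen in rodents, had 403 UMIs in WB1P members and none in WB1P-Myc members. It stood at 303, 3104 and 1242 CPM in WB1P fractions 2 to 4, from 25 of 85 members, and at 0 in all 4 WB1P-Myc fractions. Counted against 3 UMIs for the WB1P-Myc class, the log2 ratio of Mmp13 was -7.99 or lower. Without WB1P fraction 3 that bound was -6.85, and without the member richest in Mmp13 it was -7.61. After thinning to 1000 UMIs, 20.7% of WB1P members (12.6 to 31.1) and 0 of 103 WB1P-Myc members held an Mmp13 UMI. The interval for WB1P-Myc reaches 3.52%. It covers members with a captured UMI at that depth, not members that express the gene. The thinned share was 10.8% in WB1P macrophages and 1.95% in WB1P-Myc macrophages, and no inflammatory or progenitor-like cell of WB1P held an Mmp13 UMI. In the MiSeq tables Mmp13 had 109 UMIs in the 32 WB1P members and none in the 19 WB1P-Myc members.

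Mmp10 and Mmp3 are stromelysins, which cut matrix proteoglycans and activate other proteases. Mmp10 stood at 313, 892 and 1628 CPM in the WB1P fractions, from 24 members, and was seen in 1 WB1P-Myc member of fraction 3, at 86.6 CPM, with 0 in the other fractions. Its log2 ratio was -5.96 (-7.29 to -4.90), and -6.93 without WB1P-Myc fraction 3. Mmp3 stood at 176, 693 and 2511 CPM in the WB1P fractions and 81.5, 81.3, 136 and 52.6 CPM in the WB1P-Myc fractions. The Mmp3 log2 ratio was -3.60 (-4.11 to -3.12), -4.19 without WB1P fraction 2 and -2.36 without WB1P fraction 4. A single member of WB1P fraction 4 with 2527 UMIs in all held 98 of the Mmp10 UMIs and 135 of the Mmp3 UMIs, which is 41.2% and 44.4% of all members' UMIs. Without it the log2 ratios were -5.18 and -2.57. Mmp3 was also seen in the other fibroblasts: the inflammatory or progenitor-like cells had 1426 CPM in WB1P and 1954 CPM in WB1P-Myc. The 3 genes were seen in partly different cells. Any of them was seen in 45 of the 85 WB1P members, at least 2 of them in 20, and all 3 in 5, while Mmp13 and Mmp10 occurred together in 14. WB1P members with Mmp13 had 17356 CPM of Spp1 against 5314 CPM in those without, and 1101 CPM of Acta2 against 2176 CPM, at a median of 3417 and 2418 UMIs.

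These 3 genes lie in 1 cluster on chromosome 9 (GENCODE M21, mm10, all on the plus strand): Mmp13 at chr9:7272514-7283331, Mmp3 at chr9:7445822-7455975 and Mmp10 at chr9:7502352-7510240. Mmp12, macrophage elastase, which lies between Mmp13 and Mmp3, had 2 UMIs in WB1P members, and Mmp8 and Mmp27 had none in either model. AP-1, the Fos and Jun dimer, is the textbook activator of these collagenase and stromelysin genes. Its site, searched as TGANTCA on both strands, which this motif reads alike, occurred once in the 250 bases before the RefSeq start of each of the 3, at 35, 46 and 63 bases before the start of Mmp13, Mmp3 and Mmp10. It occurred in 7.82% of all 27025 promoters. Of the 20 proteases and inhibitors, 11 could be searched, and 4 had the site (Adam19 besides these 3). So did 5 of the 20 searched contractile genes (Actn4, Cald1, Mylk, Palld and Zyx), so the site was not particular to the proteases. The promoters are shown because all 3 genes were lower in WB1P-Myc (RefSeq, GRCm38.p6, plus strand, AP-1 letters in capitals), at chr9:7272264-7272513 for Mmp13, chr9:7445572-7445821 for Mmp3 and chr9:7502092-7502341 for Mmp10.
Mmp13: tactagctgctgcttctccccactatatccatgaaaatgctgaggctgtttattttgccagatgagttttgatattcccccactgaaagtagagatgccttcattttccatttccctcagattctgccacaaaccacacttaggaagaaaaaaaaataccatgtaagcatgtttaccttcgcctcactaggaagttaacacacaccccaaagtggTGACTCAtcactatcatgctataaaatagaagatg
Mmp3: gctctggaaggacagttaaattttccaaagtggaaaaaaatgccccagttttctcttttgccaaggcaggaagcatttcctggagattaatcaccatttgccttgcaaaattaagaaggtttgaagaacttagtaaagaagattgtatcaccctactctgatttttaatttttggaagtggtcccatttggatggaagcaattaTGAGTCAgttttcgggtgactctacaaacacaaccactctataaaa
Mmp10: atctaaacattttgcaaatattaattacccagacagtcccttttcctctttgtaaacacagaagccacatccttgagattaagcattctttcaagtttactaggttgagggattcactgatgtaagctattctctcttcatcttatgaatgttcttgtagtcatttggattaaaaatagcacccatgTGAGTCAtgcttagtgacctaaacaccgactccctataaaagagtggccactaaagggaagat
Binding was not measured, and most promoters with these letters belong to other genes.

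Spp1, Inhba and Serpine2, which encode secreted proteins, were past 2-fold lower in WB1P-Myc. Spp1 stood at 6449, 14662 and 7160 CPM in the WB1P fractions and 244, 1457, 2215 and 901 CPM in the WB1P-Myc fractions, which do not overlap. Its log2 ratio was -3.08 (-3.21 to -2.95), and in the MiSeq members it stood at 8086 and 408 CPM. Other cells differed too: epithelial cells had 6759 CPM of Spp1 in WB1P and 148 CPM in WB1P-Myc, and macrophages 4789 and 1917 CPM. The inflammatory or progenitor-like cells had only 191 and 86.1 CPM. Inhba had a log2 ratio of -1.87 (-2.12 to -1.62), and 1121 against 740 CPM in the MiSeq members. Serpine2 stood at 3210, 4227 and 2966 CPM in the WB1P fractions and 644, 271, 693 and 1362 CPM in the WB1P-Myc fractions. For Serpine2 the log2 ratio was -2.20, and -2.80 without WB1P-Myc fraction 4. The MiSeq members had 1911 and 1887 CPM of Serpine2, without that difference. Epithelial cells had 1020 and 111 CPM of it.

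Several of the leading WB1P-Myc genes were carried by few cells or moved in other cell types as well. Col10a1, the collagen of cartilage that turns to bone, stood at 244, 33.9, 309 and 1552 CPM in the WB1P-Myc fractions and had 1 UMI in WB1P. It came from 11 members, 1 of which held 66.0% of the UMIs. The log2 ratio of Col10a1 was 7.29 (4.80 to 12.60), and 5.75 without that member. Without WB1P fraction 2, 3 or 4 it was 6.59, 6.69 or 5.25, and without WB1P-Myc fraction 4 it was 5.51. In the MiSeq members it stood at 36.8 and 1352 CPM, and in WB1P-Myc epithelial cells at 1.37 CPM. Col2a1, the main cartilage collagen, had 53.0% of its UMIs in 1 member, and the epithelial cells and macrophages of WB1P-Myc had 356 and 434 CPM of it, against 227 CPM in the members. The log2 ratio of Col2a1 was 5.92. It was 5.22 without WB1P fraction 2, 3.73 without WB1P fraction 3 and 5.14 without WB1P-Myc fraction 2. Flrt2, a membrane protein that binds Unc5 receptors, stood at 9.79, 11 and 13.8 CPM in the WB1P fractions and 106, 122, 161 and 52.6 CPM in the WB1P-Myc fractions (log2 ratio 3.20). Epithelial cells had 1.20 and 3.09 CPM of Flrt2. In the MiSeq members it stood at 110 and 153 CPM, on 6 UMIs in each model.

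Genes of cell division were higher in WB1P-Myc members. Of 11 measured mitosis genes 9 were past 2-fold higher (8 under TMM or DESeq2 scaling) and none lower, with a median of 1.23, and of 8 replication genes 5 were higher. With any 1 fraction left out 4 of the 9 mitosis genes were called (Cdk1, Cenpe, Mki67 and Top2a) and 0 of the 5 replication genes. The others were lost, by ratio or for fewer than 20 UMIs, without 1 or more of WB1P fractions 2 to 4 and WB1P-Myc fractions 1 to 4. Top2a, the topoisomerase that untangles chromosomes, stood at 78.3, 88.1 and 124 CPM in the WB1P fractions and 424, 325, 260 and 638 CPM in the WB1P-Myc fractions, with a log2 ratio of 2.21 (1.61 to 2.87). Without the member richest in Top2a, which held 12.8% of its UMIs, the log2 ratio was 2.01. The Cenpe log2 ratio of 2.08 was 1.90 without its richest member, which had no UMI of Acta2 or Tagln and a collagen sum of 23. The member richest in Mki67, with 8 of 84 UMIs, also held 12 of the 54 Epcam UMIs of all members. Whether the division genes came from fibroblasts or from barcodes that also held RNA of other cells was not tested. At least 2 UMIs of the 16 mitosis genes were found in 14.1% of WB1P members and 41.0% of WB1P-Myc members. After thinning to 1000 UMIs the shares were 8.54% and 27.2%. The shares moved the same way in other cells: after thinning they were 7.84% and 14.3% in macrophages and 28.3% and 49.5% in epithelial cells. The MiSeq members had 221 and 230 CPM of Top2a, on 12 and 9 UMIs, without that difference. Of the 662 genes higher in WB1P-Myc, 82 had UMIs enough in the MiSeq members and 56 (68.3%) were higher there, against 50.1% of all 1744 genes. Of the 284 lower genes, 51 of 71 (71.8%) were lower, against 49.9%.

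**Figure D5:**
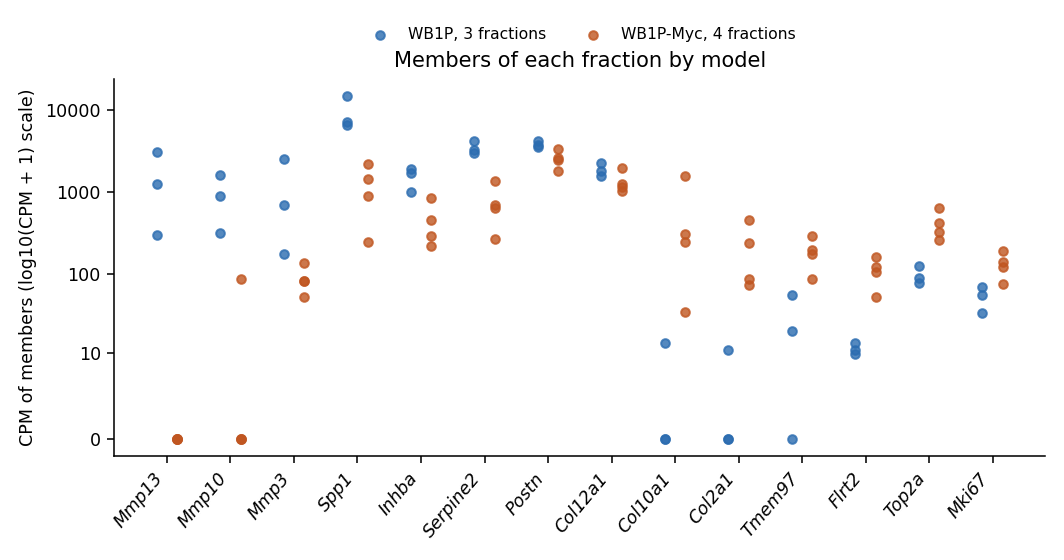
CPM of 14 genes in the members of each fraction with at least 10 members (points, log10(CPM + 1) scale), by model. Mmp13 is 0 in all 4 WB1P-Myc fractions and 303 to 3104 CPM in WB1P, and Col10a1 and Top2a lie higher in every WB1P-Myc fraction.

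Contractile and collagen genes were examined last. Of 19 contractile genes 3 were past 2-fold lower in WB1P-Myc (Mylk, Tgfb1i1 and Zyx) and none higher. The share past 2-fold lower was 15.8%, beside 5.45% of all genes, and the median log2 ratio of the list was -0.41. Zyx lost its call without WB1P fraction 4 or WB1P-Myc fraction 2 or 3. Tpm2 and Myl9 had log2 ratios of -0.52 (-0.77 to -0.26) and -0.41 (-0.85 to 0.03), and their fractions overlapped. Of 20 collagens Col10a1 and Col8a2 were past 2-fold higher and Col14a1, Col18a1, Col4a1 and Col6a3 past 2-fold lower (10% and 20%, beside 12.7% and 5.45% of all genes). With any 1 fraction left out Col10a1 alone of these 6 was called. Col8a2 lost its call without WB1P-Myc fraction 4, Col14a1 without WB1P fraction 4 or WB1P-Myc fraction 2, Col4a1 without WB1P-Myc fraction 2 and Col6a3 without WB1P fraction 2 or WB1P-Myc fraction 2 or 4. Col18a1 rested on so few UMIs that leaving out any of 7 single fractions ended its call, and its log2 ratio of -1.21 was -0.03 without WB1P fraction 2. No pericyte gene of 4 measured was past 2-fold.

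Markers of other cell types were present in the members at low level. At least 2 UMIs of the 13 epithelial genes were found in 25.9% of WB1P members and 26.7% of WB1P-Myc members, beside 33.3% and 12.3% of the macrophages. How far the shares in macrophages or members are stray epithelial RNA was not tested. After thinning to 1000 UMIs these shares were 11% and 6.80% in members and 15.7% and 3.26% in macrophages. The summed epithelial level was 88.1 to 731 CPM over WB1P fractions and 114 to 704 CPM over WB1P-Myc fractions, with 4 and 2 genes at 0. At least 2 UMIs of the 12 macrophage genes were found in 15.3% and 20% of members, at 9.79 to 331 and 94.9 to 211 CPM, with 1 gene at 0 in each model. With all cells that held 2 UMIs of either list left out, the genes higher and lower in WB1P-Myc numbered 311 and 178 of 3325 tested. Of the 662 and 284 genes called with all members, 192 and 99 were called again. Some of the others may have been lost for fewer than 20 UMIs.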

How the data were processed

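Cells were profiled by Drop-seq, in 2 tumor models of 4 fractions each. The authors deposited unnormalized gene-by-barcode UMI counts, 1000 barcodes per table, from a HiSeq run (used here) and a MiSeq run (set beside it). The submitters' processing notes name dropseq-tools 1.12, Scanpy and mm10. Against doublets and damaged cells the study set the same limits on genes and mitochondrial share as used here. No doublet caller was run, and barcodes with markers of other lineages were left out in 1 alternative. The members, gene lists and comparisons were chosen with earlier results of these data known.

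UMIs were summed over the cells of a class (Python 3.11.15, numpy 2.4.6, scipy 1.17.1, pandas 2.3.3) and given as CPM with exact Poisson intervals, ratios with exact binomial intervals and shares with Clopper-Pearson intervals, all at 95%. A class at 0 was set to 3 UMIs for a bound. Genes needed 20 UMIs, and the genes of the rule and mitochondrially encoded genes were left out. Alternatives included TMM (edgeR 4.0.16) and size factors (DESeq2 1.42.0). No test between models or classes was run.

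Genes were named as members of the rule, from a fixed list, as the 10 highest and 10 lowest class ratios and the 8 highest and 8 lowest model ratios with at least 50 UMIs, and as up to 4 genes of each list with most UMIs. Other list members were named after their values were seen. One of the genes this rule names is not reported here.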

Additional observations from a re-analysis of the deposited data

Results flagged for a closer look

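Levels of the named genes in the WB1P-Myc members, and shares of members in both models, made 62 groups of 4 fractions that were examined for a fraction far from the rest by Dixon's criterion, and 5 had one. Chance gives about 1 in 20 such groups. Fraction 3 was high for 1500015O10Rik (1349 CPM), Thbs2 (1559 CPM) and Unc5b (111 CPM) and low for Igf2 (37.1 CPM). Fraction 4 was high for Saa3 (237 CPM), where 1 member held 29 of the 40 Saa3 UMIs of all members.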

How the results depend on the processing

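No paired analysis was possible because the results come from no test, and the fraction numbers of the models name different suspensions. Of the single-gene ratios recomputed where the UMI minimum was met, 6164 stayed within 1.5-fold of the reported value and 441 moved further. These totals include settings under which a ratio could not move that far. Another UMI minimum leaves a ratio unchanged. TMM or DESeq2 scaling shifted all pooled ratios of a comparison alike, by -0.13 on the log2 scale at the furthest. In the MiSeq run 25 ratios between models moved and 34 stayed, and for the fibroblast classes 34 moved and 40 stayed. With 1 fraction left out, 64 moved and 884 stayed between models, and 64 and 1009 for the fibroblast classes. Ratios on fewer UMIs were not counted in any of these, and some of them changed sign (Fap in the MiSeq tables and Mmp9 without WB1P fraction 2). With at least 50 UMIs per gene (fewer genes tested), the counts were 144 higher and 182 lower against the inflammatory or progenitor-like cells, 77 lower against the Rgs5-high cells, and 191 higher and 103 lower between models. With at least 5 UMIs the model counts were 1754 and 815. In the MiSeq tables they were 64 and 47 for the fibroblast classes and 56 and 65 between models, with fewer cells. The MiSeq tables could not be used for the Rgs5-high comparison, since WB1P had no such cell there. Without barcodes holding epithelial or macrophage UMIs, 43 of 3651 genes were higher against the Rgs5-high cells, and 23 of these were among the 67. Between models 311 genes were higher and 178 lower, of 3325 tested. The mean over cells gave 101 higher genes against the Rgs5-high cells, and leaving out each fraction gave 14 (WB1P fraction 3) to 80. The share of members was 33.3% and 25.6% in WB1P and WB1P-Myc with a sum of at least 4, and 50.8% in WB1P MiSeq cells. The causes of these changes beyond the number of genes or cells were not tested. The depth per member (889 to 15852 UMIs) limits what was detectable for low genes, with 1 suspension per model.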
